A study of Mus musculus with 22 samples.

Results

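The cells described here are those that the authors' deposited cell table names Early Neurectoderm, in gastruloids made from wild-type mouse embryonic stem cells. They were taken by that name alone, and there were 2340 of them among 77674 named cells, or 3.01%. A gastruloid is an aggregate of embryonic stem cells that breaks symmetry and forms derivatives of the germ layers in culture. All gastruloids came from 1 line, E14Tg2A, with no genetic change, and every group had received the same pulse of the GSK3 inhibitor CHIR99021, which activates Wnt signalling, so no untreated group was compared. Cells were read by droplet sequencing on days 3 to 5 after aggregation. In MULTI-seq, lipid-anchored DNA barcodes mark the cells of each gastruloid before pooling, so that the gastruloid can serve as the replicate. The third MULTI-seq experiment held 24 gastruloids of day 3 in one pool of 2 lanes, 16 of day 3.5 and 16 of day 4 in another of 4 lanes, and 16 of day 4.5 and 16 of day 5 in the last, of 3 lanes. The labels name the lanes of a pool as samples, and lanes were not counted as replicates. Day 3 and day 3.5 lay in different pools, so day and pool cannot be told apart in any comparison between them. An earlier 10X experiment on days 3 and 4 and MULTI-seq experiments on day 5 and on days 4 and 4.5 held few of these cells.

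Early neurectoderm is the part of the epiblast, the pluripotent layer of the embryo, that takes a neural course while the primitive streak forms beside it. Transcription factors of the SoxB1 group (Sox1, Sox2, Sox3) and the POU factor Pou3f1 mark the entry into neural fate. Near the streak, cells that carry both Sox2 and the mesodermal factor T (Brachyury) contribute to spinal cord and to paraxial mesoderm. Wnt and FGF signals maintain that caudal state, and CDX factors act in it upstream of posterior Hox genes.

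Of the 2340 cells, 1164 could be traced to 1 gastruloid by its barcode, and at least 1 such cell was found in 74 of 136 gastruloids. The 2 day 3 lanes of the third experiment held 1536 of the cells. The total counts of unique molecular identifiers (UMIs, 1 for each captured transcript) ranged from 64703013 to 307883815 per lane. In the third experiment the median Early Neurectoderm cell held 27629.5 to 40463 UMIs in different lanes, and the median mitochondrial share was 1.67 to 2.44%. In the other experiments the medians were 8206 to 30518 UMIs and 4.45 to 7.48%. The authors' barcode calls marked 0 to 17.4% of the Early Neurectoderm cells of a lane as doublets, and such cells enter no value per gastruloid. Among 2339 distinct Early Neurectoderm barcode sequences, 1 was found in more than 1 lane. In the pool of days 3.5 and 4, 36.3% of the Early Neurectoderm cells (220 of 606, exact 95% binomial interval 32.5 to 40.3%) had no barcode call, against 13.2% of all cells there. Primitive Streak cells of that pool stood at 35.7%, Caudal Epiblast at 28.7% and Caudal Neurectoderm at 28.0%. In the day 3 lanes the share without a call was 43.5% and 36.2%, close to the 44.9% and 36.2% of the other cells. Shares per gastruloid in the second pool count only called cells, and the part of the missing calls in them was not tested.

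The 4 genes that mark the label were all present. Levels are given as CPM, counts scaled to a sum of 1000000 UMIs, and are compared within a gene only, because reads from transcript ends do not scale alike between genes. At day 3, Sox2 stood at 46.4 CPM over all Early Neurectoderm cells, against 13.7 in Primitive Streak, 43.6 in Caudal Epiblast, 60.1 in Caudal Neurectoderm and 156 in Late Neurectoderm. Sox3 stood at 42.8 CPM, against 19.9 in Primitive Streak, and Pou3f1 at 42.1, against 22.0. A Pou3f1 UMI was found in 57.5% of the cells unthinned. The near types were close to that, at 52.4% in Caudal Neurectoderm and 45.9% in Caudal Epiblast. Sox1, the earliest gene restricted to neural cells, was low at 7.97 CPM, above the 0.347 of Primitive Streak and the 2.71 of Caudal Epiblast, and below the 16.5 of Caudal Neurectoderm and the 69.8 of Late Neurectoderm. The types are clusters of expression, so these values describe the naming and carry no test. After thinning each cell to 5000 UMIs, a Sox2 UMI was found in 17.8% of the cells (57.7% unthinned), and in 2.07% of Early Nascent Mesoderm cells (8.81% unthinned), a type that should lack it. The median depths of these types were 28167.5 and 30611 UMIs. Sox1 was found in 4.04% of thinned cells (17.1% unthinned) against 0.153% (0.306% unthinned). At full depth, 28.7% of the day 3 cells held at least 3 of the 4 genes and 7.81% held none. These shares were 34.9% and 4.58% in Caudal Neurectoderm, and 22.9% and 9.66% in Caudal Epiblast.

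The cells also carried genes of the caudal epiblast. Nkx1-2, a factor of the caudal lateral epiblast, stood at 152 CPM at day 3, with a UMI in 94.99% of the cells (50.5% thinned), against 13.1% (3.22% thinned) in Early Nascent Mesoderm. It was found in 96.4% (60.1% thinned) of Caudal Neurectoderm cells and in 99.8% (66.9% thinned) of Caudal Epiblast cells. T stood at 97.7 CPM, against 617 in Primitive Streak, 465 in Caudal Epiblast and 71.4 in Caudal Neurectoderm. Sox2 and T were found together in 41.0% of the day 3 cells (5.14% after thinning), against 8.50% (1.302% thinned) in Early Nascent Mesoderm, 23.2% (4.93% thinned) in Primitive Streak, 47.1% (7.89% thinned) in Caudal Neurectoderm and 62.3% (15.0% thinned) in Caudal Epiblast. These shares include cells that the authors' barcode calls marked as doublets, 11.0% of the day 3 Early Neurectoderm cells, and cells with no call (39.7%), and the part of doublets in them was not tested. Pou5f1, the pluripotency factor Oct4, stood at 839 CPM. Otx2, which marks anterior epiblast and forebrain, stood at 1.48 CPM, with a UMI in 3.58% of the cells (0.586% thinned). Marker lists were summed over the gastruloids with enough cells for a sum (at least 10, a rule used throughout). Those of near cell types were well above 0 in these cells: Epiblast markers summed to 924 to 1284 CPM at day 3 and 717 to 930 at day 3.5, and markers of caudal epiblast and neuromesodermal progenitors to 349 to 654 and 342 to 634. Primitive Streak markers summed to 99.6 to 219.8 CPM and 28.1 to 100.3, and presomitic mesoderm markers to 12.8 to 36.9 and 9.94 to 24.8. Late neural markers summed to 1.88 to 20.04 CPM and 15.1 to 43.2. The nascent mesoderm genes Mesp1, Lhx1 and Mixl1 summed to 1.01 to 8.02 CPM at day 3 and 0 to 3.38 at day 3.5. Endoderm genes (Sox17, Foxa2, Trh) summed to 0 to 24.7 and 0.944 to 14.6 CPM, germ cell genes to 0 to 4.36 and 0 to 2.96, and endothelial genes to 1.02 to 19.1 and 0.768 to 9.92. Of these, Dppa3 was at 0 at day 3.5 and Cdh5 at day 3. Surface ectoderm genes (Krt8, Krt18, Tfap2a, Grhl2) summed to 9.25 to 34.9 CPM at day 3 and 4.96 to 13.5 at day 3.5. The neuron genes Tubb3, Elavl3 and Neurog2 summed to 7.92 to 26.8 and 5.66 to 22.6 CPM, with Neurog2 at 0 at day 3.5.

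Early Neurectoderm cells were found mainly on days 3 and 3.5, with a wide spread between gastruloids. At day 3 their share of a gastruloid was lowest at 1.22%, had a median of 12.3% and was highest at 32.8%, with a mean of 13.6% ± 9.09 (SD, n = 24). In 7 of the 24 gastruloids it was over 20%, and all 24 held such cells. At day 3.5 the lowest was 0%, the median 4.08% and the highest 34.1%, with a mean of 9.20% ± 11.3 (n = 16). There, 4 gastruloids held none and 3 held over 20%, and 1 gastruloid (number 30) gave 98 of the 303 cells. The ranges of both days overlapped almost fully. The difference of the means, -4.38 percentage points, did not pass a two-sided permutation test (100000 resamples, p = 0.182), and 11 of 16 gastruloids of day 3.5 lay below the day 3 median. Under 2 alternatives the difference passed: with gastruloids of at least 100 cells the difference was -7.13 points (permutation p = 0.0213), and as a centred log ratio of cell numbers it was -2.29 (permutation p = 0.00128).

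**Figure D1:**
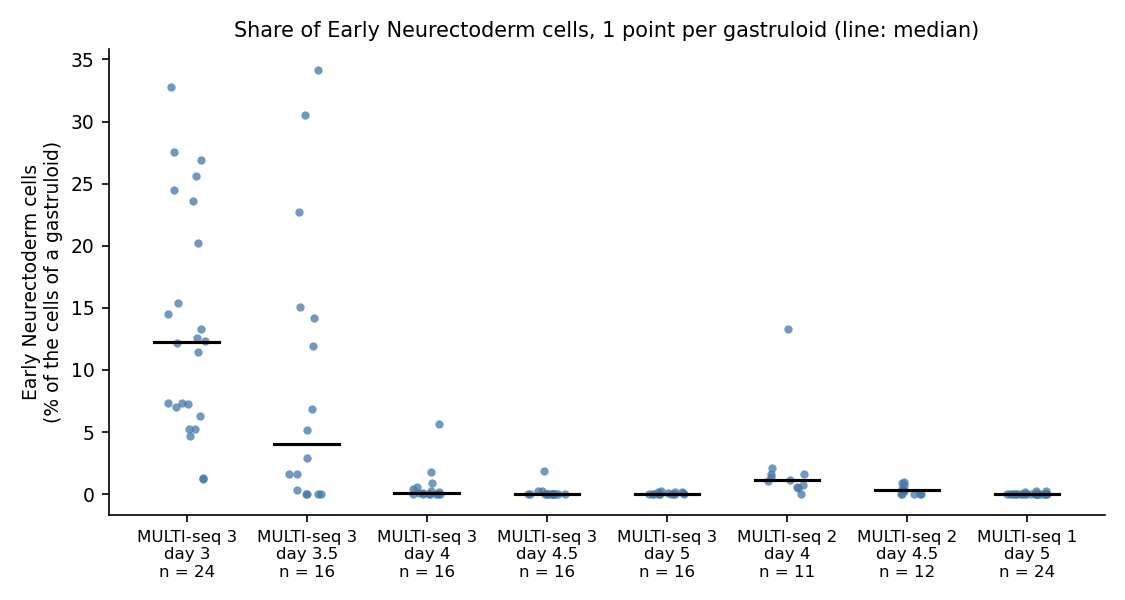
Share of Early Neurectoderm cells in each gastruloid (vertical axis, percent of its cells), 1 point per gastruloid with at least 30 cells, grouped by experiment and day, with a line at the median. The median is 12.3% at day 3 and 4.08% at day 3.5, single gastruloids reach 32.8% and 34.1%, and later groups lie mostly near 0.

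By day 4 in the third experiment most gastruloids held few of these cells or none. In the second MULTI-seq experiment, 10 of 11 day 4 gastruloids held such cells, with a median share of 1.13%, a mean of 2.19% ± 3.74 and a highest share of 13.3%, and 8 of its 22 cells came from 1 gastruloid. In the third the median was 0.0918% and the highest share 5.64% (n = 16). Of the 54 day 4 cells, 22 came from 1 gastruloid (number 20), and 7 gastruloids held none. At day 4.5 the mean was 0.152% ± 0.472 (n = 16, 3 with such cells) in the third experiment and 0.338% ± 0.366 (n = 12, 7 with such cells) in the second, and at day 5 of the third it was 0.0627% ± 0.0931 (n = 16). In the first MULTI-seq experiment 3 of 24 day 5 gastruloids held 1 cell each.

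The share of Early Neurectoderm was set against the shares of the other cell types of the same gastruloids, for types with a mean of at least 1%, giving 19 relations on the 2 days. Of these, 11 passed in Pearson's r with p-values from permutations, adjusted by the Benjamini-Hochberg method over the 19. The shares of a gastruloid add up to 100%, which by itself ties them together, so a second version of every relation takes the partner type's share among cells other than Early Neurectoderm. At day 3 the share rose with that of Caudal Neurectoderm (n = 24). Pearson's r was 0.75 (permutation p = 4e-05, or 0.000152 after adjustment) and Spearman's rho 0.80 (permutation p = 4e-05, or 0.000127 after adjustment). Leaving out the 2 gastruloids with the most extreme shares gave r = 0.77, as did counting the other cells only. It also rose with that of Epiblast. There r was 0.58 (permutation p = 0.00468, or 0.00988 after adjustment), rho was 0.47 (permutation p = 0.023, or 0.0398 after adjustment), and r was 0.49 with those 2 left out.

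The day 3 share fell with that of Early Posterior PSM (presomitic mesoderm, the precursor of the somites), at r = -0.62 (permutation p = 0.0001, or 0.000271 after adjustment) and rho = -0.73 (permutation p = 4e-05, or 0.000127 after adjustment). It fell as well with that of Anterior Primitive Streak, at r = -0.61 and rho = -0.78 (permutation p = 2e-05 for both, the smallest possible, or 9.5e-05 after adjustment). With 2 gastruloids left out these r were -0.63 and -0.61. Early Nascent Mesoderm, the type with the strongest inverse relation, had r = -0.83. The relation with Primitive Streak itself did not pass, at r = -0.18 (permutation p = 0.402, or 0.546 after adjustment) and rho = -0.14. It turned to r = 0.44 among the cells that are not Early Neurectoderm (permutation p = 0.0195, or 0.0308 after adjustment). Caudal Epiblast (r = 0.09) and PGCs (r = -0.22), the primordial germ cells, did not pass either.

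At day 3.5 (n = 16) the closest relation by Pearson's r was with Epiblast, whose share averaged 1.497% ± 1.42. Its r was 0.90 (permutation p = 8e-05, or 0.000253 after adjustment), its rho 0.85 (permutation p = 6e-05, or 0.000163 after adjustment) and its r with 2 left out 0.79. Epiblast was only 53 cells there, with a median of 64591 UMIs against 35579 in Early Neurectoderm. In the pool of days 3.5 and 4, 18.4% of Epiblast cells had a doublet call, against 5.69% of all cells. Called doublets enter no share, and the part of uncalled ones in this relation was not tested. For Caudal Neurectoderm r was 0.58 (permutation p = 0.00964, or 0.0183 after adjustment), rho 0.75 (permutation p = 0.00098, or 0.00207 after adjustment) and r with 2 left out 0.65. Late Neurectoderm gave r = 0.64 (permutation p = 0.0279, or 0.0481 after adjustment) and rho = 0.67 (permutation p = 0.0064, or 0.0122 after adjustment), but r = 0.23 with 2 left out, so over these 16 gastruloids the relation rests on those 2. Over the 14 with at least 100 cells its r was 0.83 (permutation p = 0.0146, or 0.0251 after adjustment), and 0.57 with 2 left out. The inverse relations were with Early Posterior PSM (r = -0.69, rho = -0.91), Early Nascent Mesoderm (r = -0.63, rho = -0.91) and Late Posterior PSM (r = -0.51, rho = -0.80). Their permutation p for r were 2e-05, 2e-05 and 0.00148 (9.5e-05, 9.5e-05 and 0.00351 after adjustment), and r with 2 left out was -0.70, -0.68 and -0.46. Caudal Epiblast, at r = -0.47 (permutation p = 0.0496, or 0.0785 after adjustment), did not pass. Primitive Streak, Early Spinal Cord, Late Spinal Cord and Notochord did not pass in r, while Late Spinal Cord passed in rho (0.54, permutation p = 0.0307, or 0.0485 after adjustment).

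The authors' table also gives, for each cell, the cell type and stage of its nearest match in 2 atlases of mouse embryos, an original and an extended one. These calls rest on the same expression values as the clusters, and whether they played a part in naming the cells is not known here. Over all Early Neurectoderm cells the extended reference gave Primitive Streak for 54.9%, Caudal epiblast for 18.9%, Ectoderm for 16.1% and Epiblast for 9.87%. The original gave Rostral neurectoderm for 38.3%, Caudal epiblast for 32.1%, Epiblast for 16.9%, Caudal neurectoderm for 5.85% and Primitive Streak for 4.74%. Both references thus placed most of the cells, but in part under different names. Among day 3 cells with a gastruloid, 528 were Primitive Streak in the extended reference, and the original called 36.6% of these Rostral neurectoderm, 31.3% Caudal epiblast, 21.8% Epiblast and 8.14% Primitive Streak. Caudal epiblast and Epiblast cells mostly kept their name. The original gave the same name to 80.9% of the 110 extended Caudal epiblast cells and to 74.3% of the 70 extended Epiblast cells of day 3. At day 3.5 it did so for 69.4% of 98 and 75% of 4. Extended Ectoderm cells did not keep their name. Of the 49 at day 3, the original called 49.0% Rostral neurectoderm and 30.6% Caudal neurectoderm. Of the 116 at day 3.5, it called 69.8% Rostral neurectoderm and 14.7% Caudal neurectoderm.

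The matched type moved away from streak and epiblast between day 3 and day 3.5. In the extended reference the share matched to Primitive Streak was lowest at 55.6%, had a median of 69.6% and was highest at 86.0% in day 3 gastruloids (mean 70.0% ± 7.83, n = 21). At day 3.5 it was 0, 30 and 47.4% (mean 26.9% ± 15.1, n = 9). The 2 groups did not overlap (two-sided permutation test, p = 2e-05, the smallest that 100000 resamples can give, adjusted p = 4e-05). Ectoderm went the other way, from 5.12% ± 4.34 (0, 4.76 and 13.0%) to 33.7% ± 17.8 (5.26, 38.5 and 61.2%; permutation p = 2e-05, adjusted p = 4e-05), with all 9 day 3.5 gastruloids above the day 3 median. The Caudal epiblast share rose from 15.9% ± 7.28 to 36.5% ± 15.2 (permutation p = 0.0002, adjusted p = 0.000267) and the Epiblast share fell from 9.02% ± 6.59 to 1.71% ± 3.34 (permutation p = 0.00136, adjusted p = 0.00136).

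In the original reference Epiblast fell from 20.6% ± 8.98 to 4.26% ± 3.73 (permutation p = 4e-05, adjusted p = 0.00015) and Primitive Streak from 5.90% ± 3.28 to 1.15% ± 1.53 (permutation p = 6e-05, adjusted p = 0.00015). Rostral neurectoderm rose from 29.6% ± 9.06 to 43.5% ± 13.1 (permutation p = 0.0023, adjusted p = 0.00367) and Caudal neurectoderm from 3.81% ± 3.03 to 9.21% ± 5.53 (permutation p = 0.00294, adjusted p = 0.00367). Caudal epiblast stood at 39.2% ± 16.2 and 39.3% ± 15.8 (permutation p = 0.975). In all, 8 of 9 types passed, and 5 did when gastruloids with 5 cells were let in or when day 3 lane B was left out. Rostral neurectoderm did not pass in either (adjusted p = 0.213 and 0.0664, permutation test), nor with a minimum of 20 cells (adjusted p = 0.0605). Caudal neurectoderm also did not pass in either (adjusted p = 0.064 and 0.0664). Primitive Streak of the original reference was lost with 5 cells let in (adjusted p = 0.359), and Epiblast of the extended reference without lane B (adjusted p = 0.0564).

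**Figure D2:**
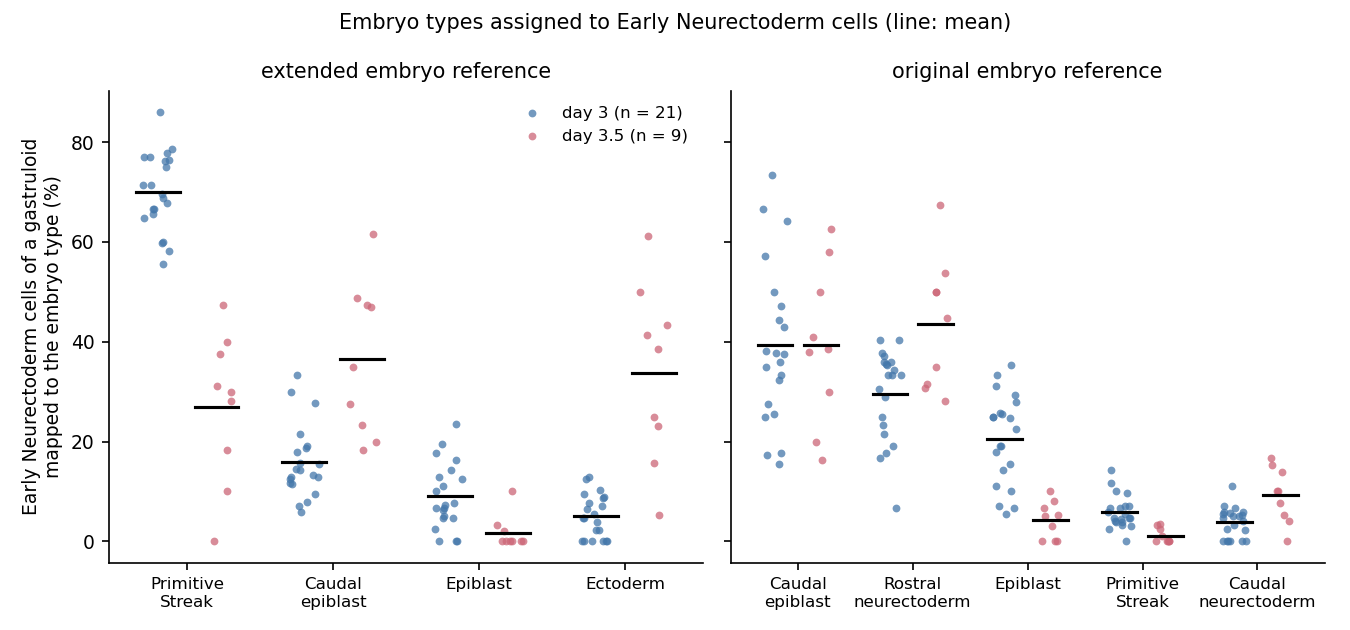
Percent of the Early Neurectoderm cells of a gastruloid matched to each embryo type (vertical axis) in the extended (left) and original (right) reference, 1 point per gastruloid with at least 10 such cells, line at the mean. In the extended reference the day 3 gastruloids (55.6 to 86.0% Primitive Streak) lie above all day 3.5 gastruloids (0 to 47.4%).

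Gene expression was compared between the days on counts summed over the Early Neurectoderm cells of each gastruloid, 21 of day 3 and 9 of day 3.5 with 1032 cells in all, and 403258 to 4327200 UMIs in each sum. The naming was the authors' and used expression on both days, so the comparison is between cells that met that name. edgeR's quasi-likelihood test with Benjamini-Hochberg adjustment called 3788 of 7742 genes (48.9%), 1965 higher (25.4%) and 1823 lower (23.5%) at day 3.5. Means below are ± SD over the gastruloids of a day. The changes were mostly small, and 75 genes changed at least 2-fold, 26 higher and 49 lower. The fitted changes are relative to a scaling between libraries. Plain CPM ratios lie 0.12 higher on the log2 scale, and without the scaling factors 2988 genes were higher and 961 lower. With every cell thinned to 5000 UMIs, 735 of 2439 genes were called.

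Of the 4 marker genes, Sox1 rose and Pou3f1 fell. Sox1 was 2.25, 5.93 and 14.9 CPM at day 3 (lowest, median and highest gastruloid) and 14.02, 26.7 and 55.0 CPM at day 3.5, with an overlap only between 14.02 and 14.9. Its log2 change was 1.96 ± 0.23 (SE, adjusted p = 3.4e-08 in edgeR). Pou3f1 went from 18.7, 42.5 and 62.6 CPM to 17.5, 27.1 and 34.1 CPM (log2 change -0.77 ± 0.11, adjusted p = 7.88e-09), and all 9 day 3.5 gastruloids lay below the day 3 median. Sox3 (24.4, 42.6 and 52.5 against 22.3, 48.0 and 77.2 CPM, log2 change 0.25 ± 0.13, adjusted p = 0.108) and Sox2 (22.5, 44.1 and 87.2 against 24.3, 37.0 and 57.6 CPM, log2 change -0.36 ± 0.16, adjusted p = 0.0605) did not pass. Each passed under some of the alternatives in processing.

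More genes of neural progenitors rose than fell. Of 20 listed, 13 could be tested, 8 rose, 1 fell and 4 did not pass, with a median log2 change of 0.60. Over all genes tested, 25.4% were higher and 23.5% lower, with a median of 0.02. The adhesion molecule Ncam1 was 16.7, 28.3 and 57.3 CPM at day 3 and 74.4, 81.1 and 93.0 CPM at day 3.5 (log2 change 1.49 ± 0.09, adjusted p = 4.32e-32). Cdh2, the N-cadherin of neural and mesodermal cells, was 30.6, 49.9 and 65.4 CPM and then 101, 124 and 143 CPM (log2 change 1.09 ± 0.07, adjusted p = 3.02e-28). The groups did not overlap for either gene. Fabp7, a lipid-binding protein of radial glia, rose from 17.8 ± 6.36 to 53.5 ± 26.6 CPM with overlap (log2 change 1.51). Hes5, a Notch target of neural progenitors, rose by 1.42 on the log2 scale from 4.53 to 14.7 CPM, and Zic2 was the member that fell (-0.28), a call lost without the scaling factors. Of 2 neuron genes tested none passed, and Meis2, listed with retinoic acid pathway genes, rose from 7.33 to 31.2 CPM (log2 change 2.04).

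Genes of the streak and of early mesoderm fell. All 6 that could be tested, of 17 listed, were lower, with a median log2 change of -0.89. Over all genes tested 23.5% were lower. T was 69.3, 93.4 and 178 CPM at day 3 and 15.9, 29.8 and 59.3 CPM at day 3.5, without overlap (log2 change -1.69 ± 0.19, adjusted p = 1.65e-08). Wnt3, the Wnt ligand of the posterior epiblast, fell from 12.2 ± 6.35 to 6.47 ± 3.44 CPM (log2 change -1.10), Fgf8 from 34.9 ± 11.8 to 19.6 ± 11.6 CPM (-0.92) and the homeobox gene Evx1 from 15.0 ± 6.76 to 7.93 ± 5.70 CPM (-0.85). The sum of the 4 Primitive Streak markers (T, Mixl1, Eomes, Fgf8) over the cells of a gastruloid was 99.6 to 220 CPM at day 3 and 28.1 to 100 CPM at day 3.5, and the part of any streak cells named Early Neurectoderm in this was not tested. Fst, the follistatin gene, is the member whose call was lost without the scaling factors.

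Of 18 listed genes of pluripotency, 7 could be tested and 3 fell, with 4 that did not pass and a median of -0.26. Over all genes tested 48.9% passed in either direction, so passing calls in 3 of 7 are near the background. Pou5f1 was 677, 882 and 1004 CPM and then 467, 536 and 629 CPM (log2 change -0.82 ± 0.06, adjusted p = 7e-13), without overlap. L1td1, an RNA-binding protein of pluripotent cells, went from 63.5, 113 and 145 CPM to 15.3, 38.5 and 56.1 CPM (log2 change -1.56), and Utf1, a chromatin factor of pluripotent cells, from 23.4 ± 8.14 to 3.48 ± 1.74 CPM (-2.98). The largest fall among genes of at least 20 CPM on average was Tdh, threonine dehydrogenase, from 9.05, 28.7 and 48.9 CPM to 0, 3.00 and 6.78 CPM (log2 change -2.89 ± 0.42, adjusted p = 1.24e-06). Epcam, an epithelial adhesion molecule, fell from 285, 358 and 421 CPM to 104, 144 and 184 CPM (log2 change -1.47 ± 0.08, adjusted p = 8.66e-16). Cdh2 and Epcam thus moved in opposite directions, each with no overlap between the days.

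**Figure D3:**
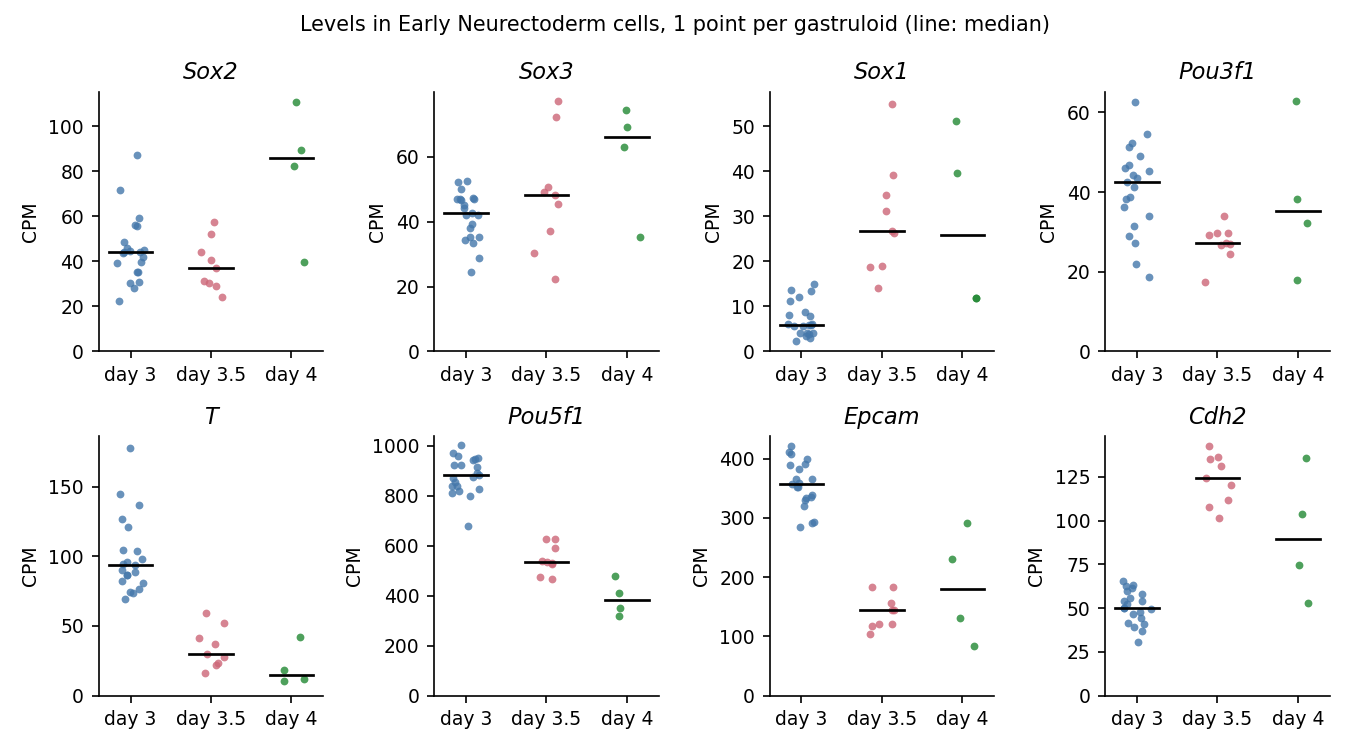
Levels of 8 genes (vertical axes, CPM) in the Early Neurectoderm cells of single gastruloids on days 3, 3.5 and 4 of the third experiment, 1 point per gastruloid (at least 10 such cells, for day 4 at least 5), line at the median. T, Pou5f1 and Epcam lie lower and Cdh2 higher in all 9 day 3.5 gastruloids than in any of the 21 day 3 gastruloids, while Sox2 and Sox3 overlap.

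The caudal genes did not move as one. Of 16 listed, 10 could be tested, and 3 rose and 5 fell, with a median of -0.16, beside 25.4% higher and 23.5% lower over all genes tested. The 3 of 10 that rose are near that background. Hoxb9 rose from 13.2 ± 7.44 to 28.1 ± 15.9 CPM (log2 change 0.88), Greb1 from 37.7 ± 7.37 to 52.1 ± 11.9 CPM (0.45) and Nkx1-2 from 158 ± 17.97 to 194 ± 26.4 CPM (0.19). T, Fgf8, Evx1, Hes7 and Grsf1 fell. Hoxb9 lost its call under 4 of its 15 alternatives and Hes7 under 7 of 13. Of 19 trunk Hox genes only 3 reached the filter, and Hoxb9 was the one that passed. Gbx2, which sets the midbrain to hindbrain boundary, rose from 60.9, 71.8 and 115 CPM to 96.7, 140.5 and 150.4 CPM (log2 change 0.72). Otx2, its anterior counterpart, was 0, 0.750 and 5.89 CPM at day 3 and had no UMI in any of the 9 day 3.5 gastruloids.

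Genes of the FGF pathway were called in both directions. Of 16 listed, 10 could be tested, 3 rose and 5 fell (median -0.35), beside 25.4% higher and 23.5% lower over all genes tested, so the share that rose is near the background. The receptors Fgfr2 (log2 change 1.28, from 6.87 to 17.9 CPM) and Fgfr1 (0.51, from 93.2 to 139 CPM) rose, as did Il17rd (0.31). The ligand Fgf8 fell, as did the transcription factor Etv4 (-0.80) and the feedback inhibitors Spry2 (-0.73), Spry4 (-0.54) and Dusp4 (-0.44), all induced by FGF signals in many tissues. Without the scaling factors 3 rose and 3 fell. Of 15 Wnt target genes 10 could be tested, and 4 rose and 3 fell, of which the share that fell is near the same background. Nkd1, a Wnt feedback inhibitor, went from 35.1 ± 7.34 to 67.3 ± 7.04 CPM without overlap (log2 change 0.79), Lef1 rose by 0.25, and T and Sp8 (-0.55) fell.

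All 9 listed genes of developmental timing, the targets of let-7 microRNAs and their partners, could be tested, and 6 rose and 1 fell (median 0.31). The shares over all genes tested were 25.4% higher and 23.5% lower. Nr6a1, an orphan nuclear receptor of the trunk, was 37.4, 56.5 and 75.6 CPM and then 94.8, 128 and 143 CPM, without overlap (log2 change 1.04 ± 0.07, adjusted p = 5.56e-28). The chromatin protein Hmga2 rose from 66.7 ± 11.3 to 142 ± 28.7 CPM (0.96) and Prtg from 199 ± 25.2 to 322 ± 25.5 CPM (0.55), while Sall4 fell (-0.19, not without the scaling factors). Among Notch genes, 9 of 14 tested, 3 rose and 2 fell: Hes5 and Hes1 (0.55) were higher and Hes7 and Dll3 (both -0.74) lower. Among Nodal and BMP pathway genes, 6 of 19 tested, Id2 rose (0.89) and Smad7 (-1.07) and Fst (-0.25) fell. Calls in 5 of 9 Notch genes and 3 of 6 Nodal and BMP genes are near the 48.9% called over all genes tested. Of the retinoic acid pathway genes, Crabp2, a retinoic acid binding protein, fell by 1.10 on the log2 scale, and the receptor Rara fell as well.

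Among 14 glycolysis genes tested 4 rose and 7 fell (median -0.13), beside 25.4% higher and 23.5% lower over all genes tested. The 4 of 14 that rose are near that background. Without the scaling factors 4 rose and 5 fell. Ldha, which makes lactate, fell from 830 ± 112 to 509 ± 60.8 CPM (log2 change -0.83) and Eno1 fell by 0.42. The glucose transporter Slc2a3 and Vegfa, a growth factor gene that the list also holds, rose by 0.58 each. Of 12 S phase genes 6 rose and none fell, among them the replication genes Mcm4 (0.43) and Rrm1 (0.39). Of 12 G2/M genes 5 rose, led by Mki67 (0.73), and Cdk1 fell (-0.39). Calls in 6 of 12 genes of each phase are near the 48.9% called over all genes tested. In S phase all 6 were rises, beside 25.4% higher over all genes tested. Of 6 stress genes tested, 5 fell, among them the p53 targets Phlda3 (-0.76) and Cdkn1a (-0.65), beside 23.5% lower over all genes tested. Without the scaling factors 2 stress genes were lower and 1 higher, and 11 S phase genes were higher. Of the 2 endoderm genes tested Apela fell (-0.73), and of the single genes tested of the anterior neural and the neural border lists, Sp8 fell and Tfap2c rose (0.47, a call lost under 6 of its 13 alternatives).

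Beyond the lists, the genes with the largest rises were Peg10, an imprinted gene of retroviral origin (log2 change 1.36, from 27.3 to 77.0 CPM), and the linker histones Hist1h1e (1.25, 221 to 575 CPM) and Hist1h1c (1.03, 26.1 to 58.1 CPM), whose near-identical relatives make their single counts uncertain. Next came Syne2, a nuclear envelope protein (1.12), and the DNA damage factors Mdc1 (1.09) and Prkdc (1.06). AY036118 (1.09) overlaps ribosomal RNA repeats, so its count is uncertain. The largest falls further held Gng3 (-1.62), Tmem238 (-1.32), Aopep (-1.20), Car2, carbonic anhydrase (-1.17), Blvrb (-1.12), Socs2, a cytokine signalling inhibitor (-1.09), and Pid1 (-1.09). In all 7 of these every day 3.5 gastruloid lay below the day 3 median. Over all genes, the ranges of the 2 days did not overlap for 224 of the 7742 tested, while 48.9% were called.

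To ask whether the day change differed from that of another type in the same gastruloids, it was set against Primitive Streak in one fit, with the gastruloid as a block. In 30 gastruloids with at least 10 cells of both types, the changes differed for 1190 of 10478 genes (11.4%), 616 more positive in Early Neurectoderm (5.88%) and 574 more negative (5.48%). Without the scaling factors the split was 443 to 666. The day change of Early Neurectoderm was called for 640 of these genes as well. With Caudal Epiblast in place of Primitive Streak, 47 of 8703 genes were called. That fit kept only gastruloids with at least 10 Caudal Epiblast cells. At day 3, 177 Caudal Epiblast cells had a gastruloid, against 3280 Primitive Streak cells. The part of these smaller numbers in the lower count, and in genes that did not pass against Caudal Epiblast, was not tested. The 2 days were in different pools for both types, so pool and day cannot be told apart here. Both types were named from expression, so the test is conditional on the authors' naming.

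Caudal genes changed differently in the 2 types. Of 14 tested, 13 had a more negative day change in Early Neurectoderm and none a more positive one (median log2 difference -1.45, beside 0.01 over all genes). Over all genes tested 5.48% were more negative and 5.88% more positive. Cdx2, an upstream regulator of posterior Hox genes, went from 224 to 279.7 CPM in Early Neurectoderm and from 88.7 to 269.7 CPM in Primitive Streak (difference -1.16). Nkx1-2 went from 158 to 194 CPM and from 62.7 to 166 CPM (-1.03). Hoxb8 went from 37.0 to 52.4 CPM and from 7.68 to 52.6 CPM (-2.16), and 7 of 9 trunk Hox genes tested differed in that direction. The levels of these genes were higher in Early Neurectoderm at day 3 and near those of Primitive Streak at day 3.5. T is a different case: it fell from 100.3 to 34.3 CPM in Early Neurectoderm and stood at 610 and 632 CPM in Primitive Streak (-1.54, adjusted p = 1.86e-07 in edgeR). Unthinned, a T UMI was found in 99.7% of Primitive Streak cells at day 3 and in 100% at day 3.5. Cells that lacked T thus rarely held that name, and the part of the naming in the T difference was not tested. Hes7, of the segmentation clock, went from 16.8 to 9.52 CPM and from 30.9 to 124 CPM (-2.56). Against Caudal Epiblast T passed as well (-1.30, adjusted p = 0.0254 in edgeR), while Hoxb8 (-0.0672) and Hes7 (-1.31) did not. Unthinned, a T UMI was likewise found in 99.8% of Caudal Epiblast cells at day 3 and in 100% at day 3.5. The part of the naming in that T difference was not tested either.

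Of 13 Wnt target genes tested, 9 were more negative in Early Neurectoderm and none more positive (median -0.53). The shares over all genes tested were 5.48% and 5.88%. The Wnt amplifier Rspo3 stood at 47.3 and 43.0 CPM in Early Neurectoderm and went from 144 to 410.1 CPM in Primitive Streak (difference -1.62). Sfrp1, a secreted Wnt inhibitor, went from 65.7 to 139 CPM and from 8.28 to 57.1 CPM (-1.56). Of the 4 marker genes, Sox2 differed (-1.13, from 45.2 to 38.5 and from 13.2 to 23.9 CPM), and Sox1 (-0.90, adjusted p = 0.0964), Pou3f1 (-0.22, adjusted p = 0.614) and Sox3 (-0.14, adjusted p = 0.626) did not pass in edgeR. Gbx2 (-1.26) and the neural genes Hes3 (-1.98, from 67.6 to 112 and from 4.66 to 32.6 CPM) and Ncam1 (-0.67) stood higher at day 3.5 in both types, with the larger fold in Primitive Streak. Against Caudal Epiblast in place of Primitive Streak the sign turned for Sfrp1 (0.55), Hes3 (0.37), Gbx2 (0.52), Sox1 (0.98), Pou3f1 (0.47) and Sox3 (0.42), and none of these passed there. For Cdh2 (-0.04) and Nr6a1 (-0.21) no difference passed. Of 15 neural progenitor genes tested against Primitive Streak, 2 were more positive, 4 more negative and 9 did not pass (median -0.26). Of 15 streak and mesoderm genes tested, 1 was more positive, 4 were more negative and 10 did not pass (median -0.07).

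Among genes with a mean of at least 20 CPM, the one with the largest difference in favour of Early Neurectoderm was Mthfd2, a mitochondrial enzyme of one-carbon metabolism. It went from 60.2 to 96.9 CPM and from 63.1 to 45.5 CPM (1.21), Psat1, of serine synthesis, from 147 to 158 CPM and from 119.5 to 79.8 CPM (0.72), and the amino acid transporter Slc7a5 (0.93) and the tyrosyl-tRNA synthetase Yars (0.80) differed likewise. Hmga2 went from 66.7 to 142 CPM and from 46.5 to 52.9 CPM (0.93, adjusted p = 1.7e-13 in edgeR), and Id2 from 32.4 to 59.5 CPM and from 6.26 to 6.62 CPM (0.82). The same rule also named Fn1 (0.99), Mest (0.91), Pkdcc (0.87), Mvd (0.83) and Smchd1 (0.72), of which Pkdcc went from 13.4 to 4.74 CPM and from 40.9 to 10.1 CPM. Against Caudal Epiblast none of these genes passed, and the sign turned for Psat1 (-0.28), Fn1 (-0.0948) and Mvd (-0.11). Of 12 S phase genes 8 were more positive, led by Rrm2 (0.50, from 185 to 249.6 CPM and at 149.6 CPM on both days in Primitive Streak). Of 12 G2/M genes 5 were more positive, but only 1 without the scaling factors. Over all genes tested 5.88% were more positive. Other genes with a more negative change were Crabp2 (-1.76), Epha5 (-1.58), Wnt5a (-1.47), Apela (-1.46, from 128 to 78.9 and from 21.6 to 43.6 CPM), S100a10 (-1.45) and Defa30 (-3.23), a defensin whose close relatives make its count uncertain. Of these, Apela turned to 0.59 against Caudal Epiblast.

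**Figure D4:**
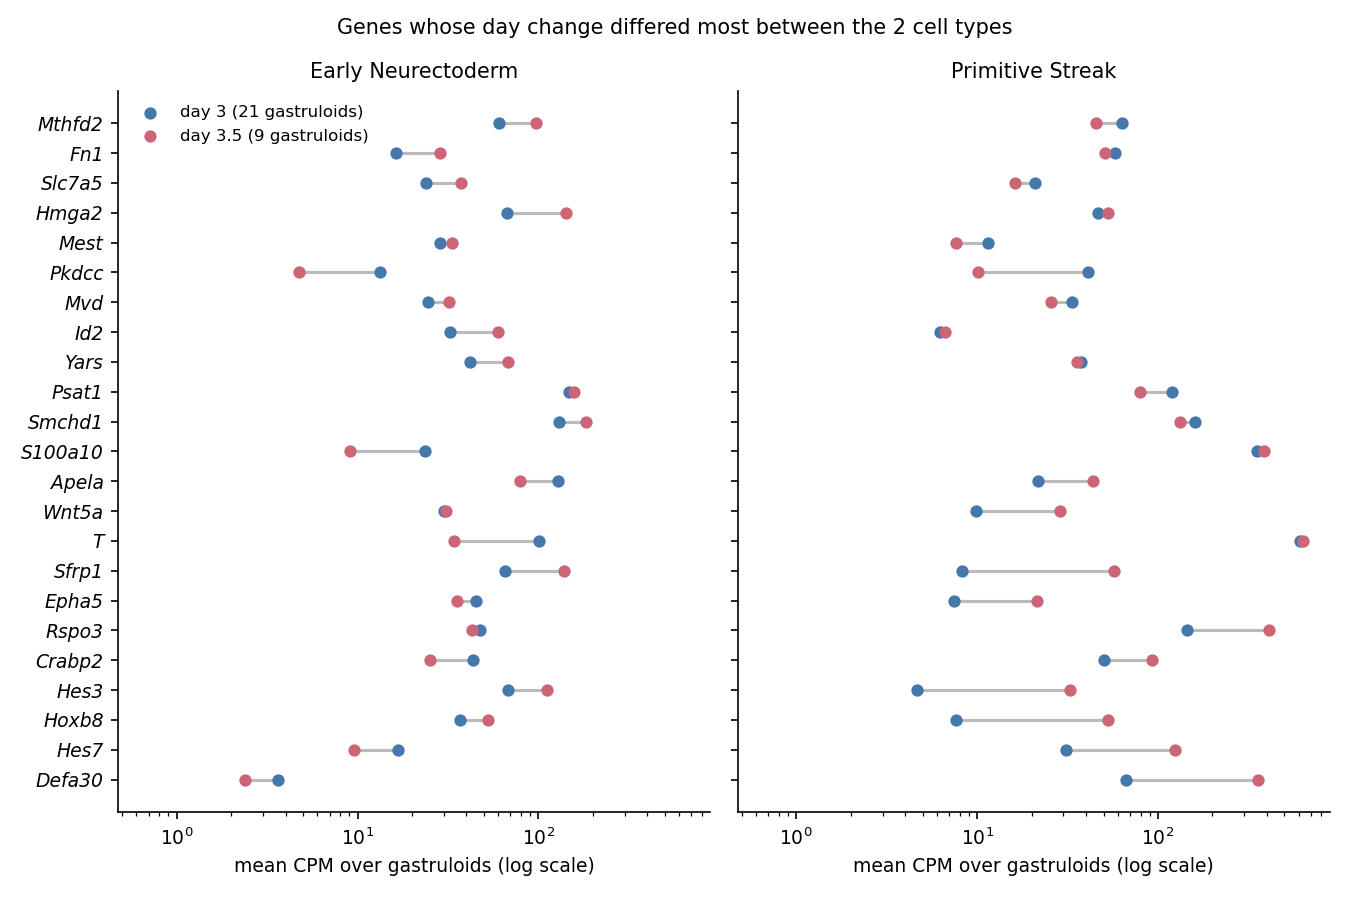
Mean level over gastruloids (horizontal axes, CPM, log scale) at day 3 and day 3.5 in Early Neurectoderm (left) and Primitive Streak (right) of genes named for the size of the difference in their day change. In Early Neurectoderm T falls from 100.3 to 34.3 CPM and Hmga2 rises from 66.7 to 142 CPM, while in Primitive Streak T stands at 610 and 632 CPM and Hoxb8 at 7.68 and 52.6 CPM.

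Day 4 cells shared the pool of day 3.5, but only 1 day 4 gastruloid held 10 of them, so the planned comparison could not be made. With a minimum of 5 cells, 4 gastruloids of day 4 were set against 11 of day 3.5. edgeR called 53 of 7117 genes (0.745%), 24 higher (0.337%) and 29 lower (0.407%) at day 4. Leaving out day 4 gastruloids in turn changed that count: without number 1 it was 24, without number 7 it was 22, without number 20 it was 112 and without number 22 it was 40. Wnt feedback genes were among the lower ones: Nkd1 went from 69.3 ± 7.83 to 19.3 ± 18.9 CPM (log2 change -1.39, adjusted p = 0.000835), Axin2 from 58.7 ± 7.33 to 21.9 ± 13.6 CPM (-1.16, adjusted p = 0.000835) and Notum from 18.5 ± 4.16 to 4.13 ± 6.46 CPM (-1.58, adjusted p = 0.0413). None of the other 7 Wnt targets tested passed.

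The forkhead gene Foxb1 went from 115 ± 16.8 to 45.8 ± 22.1 CPM (-1.16) and the adhesion molecule Alcam (-1.11), Rai14 (-1.08) and the neuropilin Nrp2 (-1.07) were lower too. L1td1 rose from 37.9 ± 13.1 to 130.3 ± 44.3 CPM (1.60, adjusted p = 0.0128), Zfp608 from 23.0 to 59.7 CPM (1.23), Sfrp1 from 136 ± 20.2 to 282 ± 65.2 CPM (0.97, adjusted p = 0.000561), Fkbp9 by 0.94 and Ckb, brain creatine kinase, by 0.91. L1td1 had fallen between days 3 and 3.5, and its mean over these few day 4 gastruloids was again near its day 3 level. Levels in the second MULTI-seq experiment, which pooled days 4 and 4.5, were lower. There the Early Neurectoderm cells held L1td1 at 79.4 CPM in pool B and 27.3 CPM in pool C. Those of the day 3 lanes of the third experiment held it at 112 CPM. Whether the return holds beyond these gastruloids was not tested. The rest named by the rule were Cep290, Tmem131l, Basp1, Kif4, Kif2c, Pnrc1 and Nusap1, with rises of 0.52 to 0.78, and Zfp36l2, Atf4, Ifrd1, Rrp9, Epop and Tspan13, with changes of -0.91 to -0.58. In the adjusted test none of the 4 markers, 14 neural progenitor genes, 8 caudal genes (median -1.29) and 9 FGF genes passed.

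The 4 day 4 gastruloids were not alike. Numbers 1 and 7, with 9 and 6 cells, held Otx2 at 41.2 and 80.8 CPM, and numbers 20 and 22, with 22 and 8 cells, held none. Nkx1-2 was 32.4 and 2.99 CPM in the first pair and 179 and 66.6 CPM in the second, and Cdx2 was 17.7 and 17.96 against 188 and 108 CPM. The forebrain gene Hesx1 was at 8.83 and 15.0 CPM in numbers 1 and 7 and at 0 in the others. Sox1 was 11.8 and 11.97 against 39.5 and 51.2 CPM. Otx2 and Hesx1 were chosen after their values were seen, the pairs were not compared by a test, and the Otx2 values rest on 14 and 27 UMIs. Of the 79 day 4 cells of all experiments, the original reference matched 68.4% to Rostral neurectoderm, while the extended one matched 41.8% to Ectoderm, 31.6% to Primitive Streak and 20.3% to Epiblast.

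Within day 3, few genes in Early Neurectoderm cells followed the share that these cells made up of their gastruloid. Over 21 gastruloids, edgeR called 8 of 7956 genes (0.101%) for a slope on the share, 3 positive (0.0377%) and 5 negative (0.0628%), and 589 had an unadjusted p under 0.05. Per 10 percentage points of share, Etv4, an FGF target factor, fell by 0.36 on the log2 scale (adjusted p = 0.00264), with 30.8, 52.5 and 102 CPM in the lowest, median and highest gastruloid. The ERK phosphatase Dusp4 fell by 0.30 (adjusted p = 0.00838) and Utf1 by 0.39 (adjusted p = 0.00838), and Mcc (-0.25) and Mkrn1 (-0.12) had negative slopes too. Gnai2, a G protein subunit, had a slope of 0.14 (adjusted p = 0.000303), Pigp of 0.25 and Peg3 of 0.16. Of 10 FGF pathway genes tested 2 were called, with a median slope of -0.19. Without day 3 lane A 1 gene was called, and without lane B or with thinned cells none was. At day 3.5, with 9 gastruloids, edgeR and DESeq2 called 0 of 8131 genes (0%), and 353 had an unadjusted p under 0.05.

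**Figure D5:**
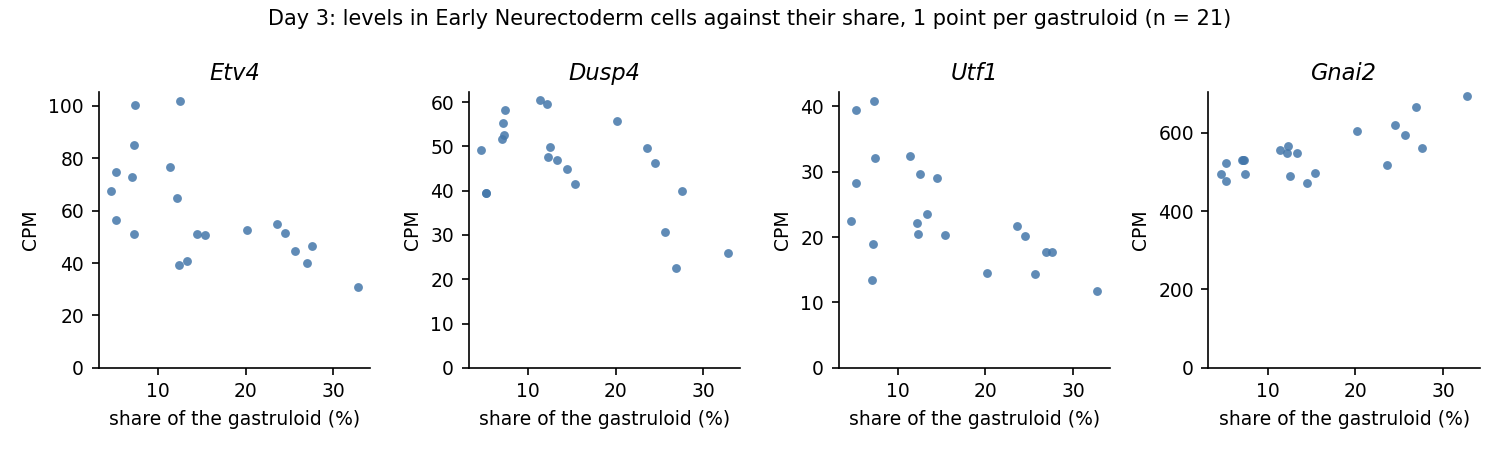
Levels of 4 genes (vertical axes, CPM) in the Early Neurectoderm cells of day 3 gastruloids against the share of these cells in the gastruloid (horizontal axes, percent), 1 point per gastruloid (n = 21). Etv4 ranges from 30.8 to 102 CPM with its lowest value at the highest share, and Gnai2 from 471 to 693 CPM.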

How the data were processed

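Single cells of wild-type E14Tg2A gastruloids were read with droplet kits that count transcript ends. The deposited matrices hold UMI counts per gene and cell, made with Cell Ranger 6.0.0 on mm10, with Seurat also named, per the submitters' processing notes. The authors' deposited cell table gives each cell's type, lane, day, barcode call and matched embryo type. The sources used here do not give how the authors filtered cells or, beyond the barcode calls, removed doublets. MULTI-seq 2 lanes of days 3 and 3.5 are not used here.

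Counts were summed over the Early Neurectoderm cells of each gastruloid with at least 10 of them. Cells with no call or a doublet call were left out. Each sum was tested with edgeR 4.0.16 (quasi-likelihood test, TMM scaling, filterByExpr) in R 4.3.3, with Benjamini-Hochberg adjusted p under 0.05 as the threshold, and DESeq2 1.42.0 as an alternative. Shares used gastruloids of at least 30 cells and two-sided permutation tests (100000 resamples) in scipy 1.17.1. The gastruloid is the replicate, and the p-values cover the spread between gastruloids of 1 line. Poisson and binomial intervals (95%) cover counting error only. The edgeR step was tested on simulated data.

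The members and lists were chosen with earlier results of these data known. Named genes were the 12 largest changes in each direction with a mean of at least 20 CPM, the 4 markers, and up to 2 members per direction of each list; some results are not reported here. Alternatives changed the scaling, the filters, the minimum of cells, the depth, the lanes and the comparison type.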

Additional observations from a re-analysis of the deposited data

Results flagged for a closer look

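Of 61 groups of 4 to 10 gastruloids examined for a sample far from the others, 1 had such a sample, where chance gives about 1 in 20. The share of Early Neurectoderm cells matched to Epiblast in the extended reference was 10% in 1 day 3.5 gastruloid, which is 1 of its 10 such cells, and 3.33% in the next (n = 9).

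The change between day 3 and day 3.5 differed from that in Primitive Streak, by the test of the difference itself, for 1190 genes. Among the genes named by the rule, the log2 differences were positive for Mthfd2 (1.21), Fn1 (0.99), Slc7a5 (0.93), Hmga2 (0.93), Mest (0.91), Pkdcc (0.87), Mvd (0.83), Id2 (0.82), Yars (0.80), Psat1 (0.72) and Smchd1 (0.72). They were negative for Defa30 (-3.23), Hes7 (-2.56), Hoxb8 (-2.16), Hes3 (-1.98), Crabp2 (-1.76), Rspo3 (-1.62), Epha5 (-1.58), Sfrp1 (-1.56), T (-1.54), Wnt5a (-1.47), Apela (-1.46) and S100a10 (-1.45).

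Early Neurectoderm cells were also found in lanes that no comparison used, listed here where a lane held more than 3 of them. They made up 1.86% of the 10X day 3 lane, 0.990% and 0.867% of the lanes of pool B and 1.52% and 1.14% of those of pool C of the second MULTI-seq experiment, and 0.190%, 0.115% and 0.0680% of the day 4.5 and 5 lanes of the third.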

How the results depend on the processing

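The share of Early Neurectoderm passed the test with gastruloids of at least 100 cells (-7.13 points) and as a centred log ratio (-2.29). Matched types past the threshold numbered 5 with a minimum of 5 cells and 5 without day 3 lane B, and the difference for Caudal epiblast in the original reference, which passed nowhere, was -2.68 points without lane D of days 3.5 and 4. Among the other cells the relation to Primitive Streak at day 3 had r = 0.44, and that to Early Spinal Cord at day 3.5 had r = 0.0087, or 0.14 with at least 100 cells. Genes called between days 3.5 and 3 numbered 735 with thinned cells, where fewer genes were tested, and 2790 to 4123 under the other alternatives. For day 4 the counts without 1 gastruloid were 22, 24, 40 and 112. Its other alternatives were not run, since the planned minimum of 10 cells left 1 day 4 gastruloid.

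The difference from Primitive Streak had 776 genes with a minimum of 20 cells, 139 with thinned cells, 679 without day 3 lane B and 47 against Caudal Epiblast. With no replicate block, that is with the 2 types of a gastruloid treated as unpaired, 1223 genes were called. Sox3, which passed nowhere against Primitive Streak, turned to 0.0067 with a minimum of 20 cells, 0.0268 without day 3 lane A and 0.060 without lane A of days 3.5 and 4, and Egr1 to 0.30 with thinned cells. Against Caudal Epiblast the sign turned for Fn1 (-0.0948), Mvd (-0.11), Psat1 (-0.28), Hes3 (0.37), Sfrp1 (0.55), Apela (0.59), Sox3 (0.42), Sox1 (0.98), Pou3f1 (0.47), Gbx2 (0.52), Stmn2 (0.11), Id3 (0.0313), Id1 (0.31) and Sall4 (0.22). Slopes on the share at day 3 numbered 4 with DESeq2, 14 with no filter, 15 with a minimum of 20 cells, 0 with thinned cells, 1 without lane A and 0 without lane B. At day 3.5 they numbered 1 with a minimum of 20 cells and 2, 1, 2 and 2 without lanes A, B, C and D. Except where fewer genes, cells or samples were tested, the cause was not tested. Sox2 and Sox3, between days 3 and 3.5, passed under 3 and 6 alternatives.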

Other observations

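The 57 Early Neurectoderm cells of the 10X day 3 lane came from pooled gastruloids, so there is no replicate and no test. Their T level was 188 CPM (exact Poisson interval 163 to 217, counting error only), against 97.7 CPM in the day 3 lanes of the third MULTI-seq experiment. The Wnt feedback genes Nkd1 (88.5 against 35.003 CPM) and Axin2 (79.0 against 50.9 CPM) and the caudal factor Cdx2 (438 against 209 CPM) were higher as well, and Pou3f1 was lower (14.3 against 42.1 CPM). Their median depth was 16169 UMIs and their median mitochondrial share 4.45%, both different from the third experiment, and the part of these in the levels was not tested.

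The Early Neurectoderm cells of days 4 and 4.5 in the second MULTI-seq experiment held Sox1 at 31.6 CPM in pool B and 40.6 CPM in pool C, and T at 17.6 and 23.2 CPM. The 22 such cells of days 4.5 and 5 in the third experiment held Sox1 at 57.4 CPM and T at 2.50 CPM, the latter from 2 UMIs. In pool B, 25.0% of the Early Neurectoderm cells had no barcode call (11 of 44, exact binomial interval 13.2 to 40.3%), against 3.52% of all cells.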
